A study of Caenorhabditis elegans with 12 samples.

Results

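The 7 genes described here, dod-17, dod-19, dod-20, dod-21, dod-22, dod-23 and dod-24 of Caenorhabditis elegans, were taken by their WBcel235 gene names from a table of 46926 genes, and all 7 were found. Their transcripts were counted in whole young adult wild-type N2 hermaphrodites given 100 µM bromhexine, 200 µM genipin or only the solvent DMSO for 48 h, with 4 libraries in each of the 3 groups. Bromhexine is used as a mucolytic, and genipin, from gardenia fruit, is known as a crosslinker of proteins. The worms of all groups were kept at one temperature on a lawn of Escherichia coli OP50-1, with streptomycin in the medium and with FUDR, an inhibitor of DNA synthesis that keeps progeny from developing, in the plates, and both compounds were dissolved in DMSO. The 4 libraries of a group are not said to come from separate cultures, so p-values cover no more than the spread among these libraries, part of which may be technical.

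The name dod stands for downstream of DAF-16. The insulin-like receptor DAF-2 acts through the kinases AGE-1 and AKT to hold the FOXO transcription factor DAF-16 out of the nucleus, and DAF-16 enters it when insulin signalling is low. The genes of this list were named because their transcripts are lower when DAF-16 is active than when it is absent. The proteins of dod-17, dod-21, dod-22 and dod-24 carry a CUB-like domain, and genes of that family are known to respond to intestinal infection, several of them through the p38 kinase PMK-1. No library here had daf-2 or daf-16 mutated, so the naming pattern itself could not be examined in these data.

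Library totals ran from 20.3 to 28.1 M counts. Of the genes in the table, 13695 had enough counts to be tested, 6 of the 7 dod genes among them. dod-20 had too few counts. Levels are given as CPM, counts per 1 M counts with the library size scaled by TMM, and genes with an adjusted p under 0.05 were called (edgeR's quasi-likelihood test, Benjamini-Hochberg over all tested genes). Genipin replicate 1 stood apart from its group in one respect. For 2 genes with no count in any DMSO library and at least 50 counts in every bromhexine library, it held 249 counts (2.93% of the bromhexine mean), against 22, 14 and 9 counts in genipin replicates 2 to 4. Results that rest on genipin are therefore also given without it where that changed a call.

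With bromhexine, 5 of the 6 tested dod genes were called lower than with DMSO and none higher. Of all tested genes, 21.8% were called lower and 19% higher, 40.8% in either direction. The median log2 fold change of the 6 was -1.73, beside 0.0015 for all tested genes. The 4 genes on chromosome IV, dod-21, dod-22, dod-24 and dod-17, had 2.83-fold to 5.14-fold less transcript, whereas dod-19 on chromosome V was 1.20-fold lower. A decrease of at least 2-fold was called for those 4 of the 6, and for 7.52% of all tested genes. For the same 5 genes all 4 bromhexine libraries lay below all 4 DMSO libraries, as they did for 19.7% of tested genes. The sixth, dod-23 on chromosome II, did not pass the test. In whole worms, fewer cells of a type and less RNA per cell cannot be told apart.

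**Figure D1:**
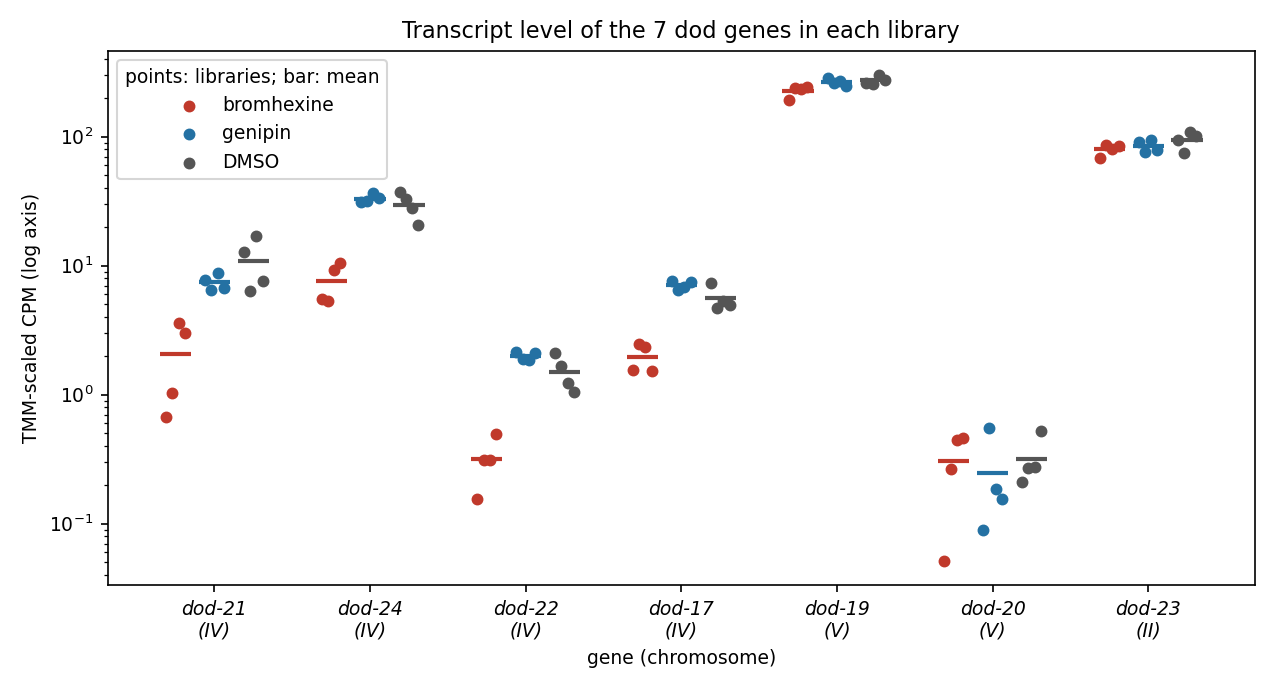
Level of each dod gene in each library, in TMM-scaled CPM on a log axis, by group (bromhexine, genipin, DMSO), with points for libraries and bars for the mean of 4. For dod-21, dod-24, dod-22, dod-17 and dod-19 every bromhexine point lies below every DMSO and every genipin point, while the groups overlap for dod-20 and dod-23.

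The 4 genes on chromosome IV lie within 41.6 kb. dod-21 (WBGene00007873) spans bases 12936738 to 12937988 on the plus strand, and dod-24 (WBGene00007875) spans 12940106 to 12941354 on the minus strand. dod-22 (WBGene00010125) spans 12965374 to 12967392 and dod-17 (WBGene00010745) spans 12976303 to 12978343, both on the plus strand. All 4 are protein-coding, and no annotated gene overlaps any of them. Between dod-21 and dod-24 there are 2117 bases, between dod-24 and dod-22 there are 24019, and between dod-22 and dod-17 there are 8910.

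dod-24 was the most abundant gene of this group. It had 5.54, 5.34, 9.22 and 10.4 CPM in the bromhexine libraries, 30.9, 31.6, 36.6 and 33.2 CPM in the genipin libraries, and 37.0, 33.1, 27.9 and 20.8 CPM in the DMSO libraries. The highest bromhexine library stayed well below the lowest DMSO library, and the genipin libraries lay in the upper range of DMSO. The log2 fold change of bromhexine against DMSO was -1.95 ± 0.21 (SE, n = 4 each, 95% interval -2.39 to -1.51, adjusted p = 6.67e-06, edgeR), the 149th strongest decrease among the tested genes.

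dod-22 was a weakly expressed gene, with 3, 7, 7 and 13 counts in the bromhexine libraries, 48, 44, 40 and 54 in the genipin libraries, and 60, 37, 27 and 28 in the DMSO libraries. As CPM these were 0.154, 0.312, 0.312 and 0.497 with bromhexine, 2.14, 1.88, 1.87 and 2.1 with genipin, and 2.09, 1.66, 1.23 and 1.05 with DMSO. No bromhexine library came near the other groups, although counts this small make the fold change less precise than that of dod-24. It fell by 2.19 ± 0.33 on the log2 scale (95% interval -2.89 to -1.49, adjusted p = 0.000142, edgeR).

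dod-17 had 1.54, 2.45, 2.36 and 1.53 CPM with bromhexine, 7.62, 6.43, 6.81 and 7.5 CPM with genipin, and 7.36, 4.66, 5.29 and 4.96 CPM with DMSO. Its bromhexine libraries lay below both other groups, and DMSO replicate 1 stood among the genipin libraries, above the other DMSO libraries. The log2 fold change with bromhexine was -1.50 ± 0.20 (95% interval -1.92 to -1.08, adjusted p = 4.83e-05, edgeR), the smallest decrease of the 4 genes on this chromosome.

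Of the 4 genes on chromosome IV, dod-21 varied most between the libraries of each group. It had 0.667, 1.02, 3.61 and 3.02 CPM with bromhexine, 7.71, 6.43, 8.77 and 6.72 CPM with genipin, and 12.7, 6.37, 17.1 and 7.55 CPM with DMSO. The bromhexine libraries spanned 5.41-fold, with replicates 1 and 2 below replicates 3 and 4, and the coefficient of variation was 69.8% with bromhexine, 14.3% with genipin and 45.2% with DMSO. Even so, the highest bromhexine library lay below the lowest DMSO library. The log2 fold change was -2.36 ± 0.40 (95% interval -3.22 to -1.51, adjusted p = 0.000406, edgeR).

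Part of the counts of dod-21 were shared with another gene. The expected counts come from RSEM, which splits a read among the genes it matches, and dod-21 carried decimals in all 12 libraries. Among 810 genes with decimals in at least 8 libraries, 1 gene completed dod-21 to whole reads within 0.015, and it did so in 12 of 12 libraries. That gene was cld-1, which lies on the minus strand 466 bases to the left of dod-21. The 2 genes summed had 2.67 ± 1.40 CPM with bromhexine, 10.9 ± 1.07 with genipin and 15.8 ± 7.09 with DMSO (SD, n = 4 each). Their sum fell by 2.54 ± 0.34 on the log2 scale with bromhexine (adjusted p = 5.28e-05, edgeR). The sum does not show how the shared reads divide, so the level and the fold change of dod-21 on its own are uncertain.

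**Figure D2:**
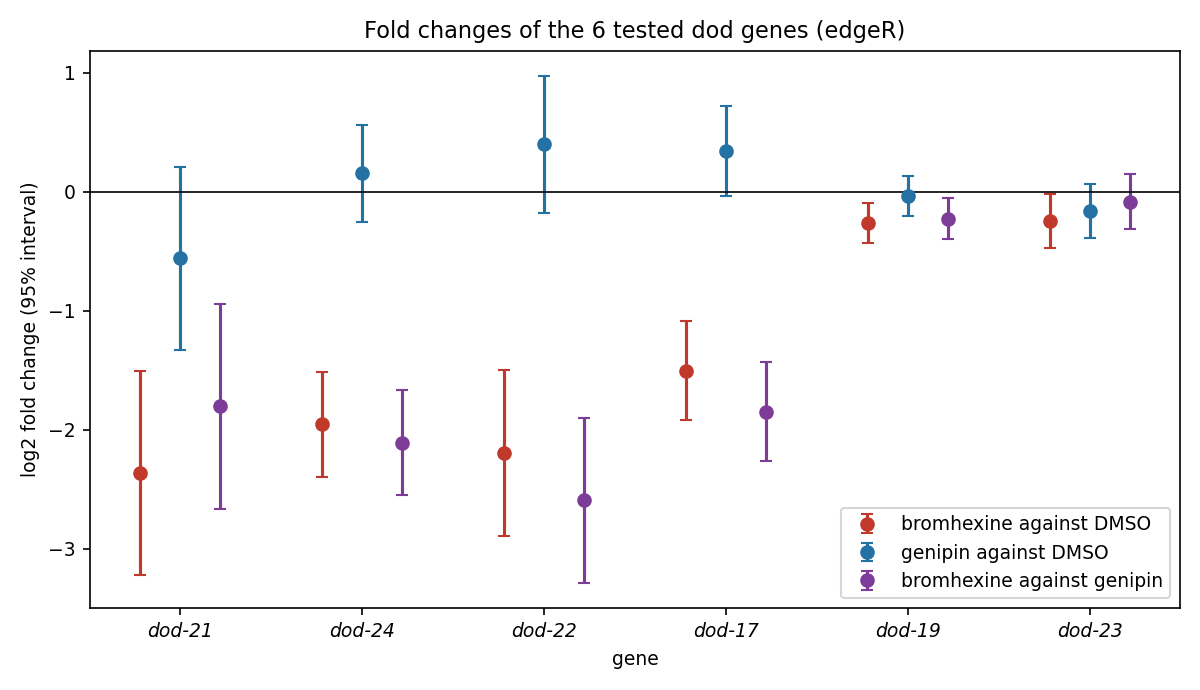
Log2 fold changes of the 6 tested dod genes with 95% intervals from edgeR, for each compound against DMSO and for bromhexine against genipin. The 4 genes of chromosome IV lie between -2.36 and -1.50 for bromhexine against DMSO, while every interval of genipin against DMSO includes 0.

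dod-19 (WBGene00022644, chromosome V, bases 411782 to 414759, minus strand) was the most abundant dod gene of the list and moved little. It had 191.7, 239, 233.9 and 244.5 CPM with bromhexine, 286.9, 262.4, 268.1 and 246 CPM with genipin, and 259, 257, 300.2 and 274 CPM with DMSO. The bromhexine libraries all lay below the others, but the highest of them was close to the lowest of genipin. The log2 fold change with bromhexine was -0.26 ± 0.08 (95% interval -0.43 to -0.09, adjusted p = 0.0173, edgeR). This call was lost without bromhexine replicate 1 (adjusted p = 0.0554) and without DMSO replicate 3 (adjusted p = 0.0634), in a range of 0.00929 to 0.0634 over the alternatives run.

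dod-20 (WBGene00015259, chromosome V, bases 422433 to 424177, plus strand) lies 7673 bases to the right of dod-19 and was barely detected. It had 1, 6, 10 and 12 counts with bromhexine, 2, 13, 4 and 4 with genipin, and 6, 6, 6 and 14 with DMSO. The 3 groups overlapped throughout. In a fit of 20410 genes without a filter its log2 fold change with bromhexine was -0.05 ± 0.63 (95% interval -1.36 to 1.26). That interval includes a change of 2-fold in either direction. With genipin the same fit gave -0.38 ± 0.64.

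dod-23 (WBGene00009898, chromosome II, bases 8398161 to 8399164, minus strand) had 67.9, 86.3, 80.7 and 84.7 CPM with bromhexine, 90.4, 75.4, 93.8 and 79.1 CPM with genipin, and 94.9, 74.9, 108 and 101.5 CPM with DMSO. Here DMSO replicate 2 lay below 3 of the 4 bromhexine libraries. The log2 fold change with bromhexine was -0.25 ± 0.11 (adjusted p = 0.0783, edgeR), with a 95% interval, not adjusted for the number of genes, of -0.47 to -0.02. Without DMSO replicate 2 the value was -0.34 and passed (adjusted p = 0.0112), in a range of 0.0112 to 0.232 over the alternatives run.

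Levels were compared between genes per length, as TPM over the exons of each gene. The order was the same in all 3 groups: dod-19, dod-23, dod-24, dod-21, dod-17, dod-22 and dod-20, from high to low. dod-19 had 224.9 ± 22.4 TPM with bromhexine, 280.4 ± 19.4 with genipin and 285.1 ± 22.3 with DMSO (SD, n = 4 each). That was 710 times the level of dod-20 with bromhexine, 1030 times with genipin and 810 times with DMSO. Among neighbours in the order, dod-21 and dod-17 overlapped in every group, at 2.50 ± 1.73 and 2.39 ± 0.630 TPM with bromhexine and at 14.0 ± 6.35 and 7.12 ± 1.50 TPM with DMSO. dod-22 and dod-20 overlapped with bromhexine, at 0.349 ± 0.149 and 0.317 ± 0.196 TPM, and were separate with genipin and with DMSO. Thus with bromhexine dod-22 stood at the level of the barely detected dod-20.

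With genipin, none of the 6 tested dod genes was called, and none had an unadjusted p under 0.05. DESeq2 and limma voom also called none of them. Over all tested genes, 0.0292% were called higher and 0.0073% lower, 0.0365% in all. The median log2 fold change of the 6 was 0.06, and the groups overlapped for all 7 genes, while for 1.61% of tested genes all 4 genipin libraries lay below all 4 DMSO libraries. The lowest value was that of dod-21 (-0.56 ± 0.36, 95% interval -1.33 to 0.21, adjusted p = 0.994) and the highest that of dod-22 (0.40 ± 0.27, 95% interval -0.18 to 0.97, adjusted p = 0.994, edgeR). For dod-24 the interval was -0.25 to 0.56 and for dod-17 it was -0.03 to 0.72. A decrease as large as the one with bromhexine therefore lies outside the genipin interval for each of the 4 genes of chromosome IV. The coefficients of variation of dod-24, dod-22 and dod-17 were 7.61%, 7.25% and 7.98% with genipin, against 23.6%, 30.8% and 21.9% with DMSO. Those of dod-21 were 14.3% and 45.2%, and those of dod-23 were 10.4% and 15.1%. dod-19 hardly differed (6.35% and 7.32%), and dod-20 went the other way (84.9% and 44.1%). The value of dod-22 with genipin rests on 40 to 54 counts. These differences in spread were not tested and were not set beside those of all genes.

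The difference between the 2 compounds was tested directly, at unequal doses and with the bromhexine libraries shared with the comparison above. The same 5 genes were lower with bromhexine than with genipin, beside 19.5% of all tested genes called lower and 15% higher, 34.5% in either direction. A decrease of at least 2-fold was called for 4 of the 6 and for 6.51% of all tested genes. All 4 bromhexine libraries lay below all 4 genipin libraries for these 5 genes, and for 16.5% of tested genes. For dod-22 the log2 fold change was -2.59 ± 0.32 (95% interval -3.28 to -1.90, adjusted p = 4.26e-05), or 6.02-fold less transcript. For dod-24 it was -2.11 ± 0.21 (adjusted p = 3.64e-06), for dod-17 -1.85 ± 0.20 (adjusted p = 7.96e-06) and for dod-21 -1.80 ± 0.40 (adjusted p = 0.00358, edgeR). dod-19 had a log2 fold change of -0.23 ± 0.08 (adjusted p = 0.0399), which lost its call without genipin replicate 1 (adjusted p = 0.106, in a range of 0.0215 to 0.124 over the alternatives run). dod-23 did not pass (-0.08 ± 0.11, 95% interval -0.31 to 0.15).

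**Figure D3:**
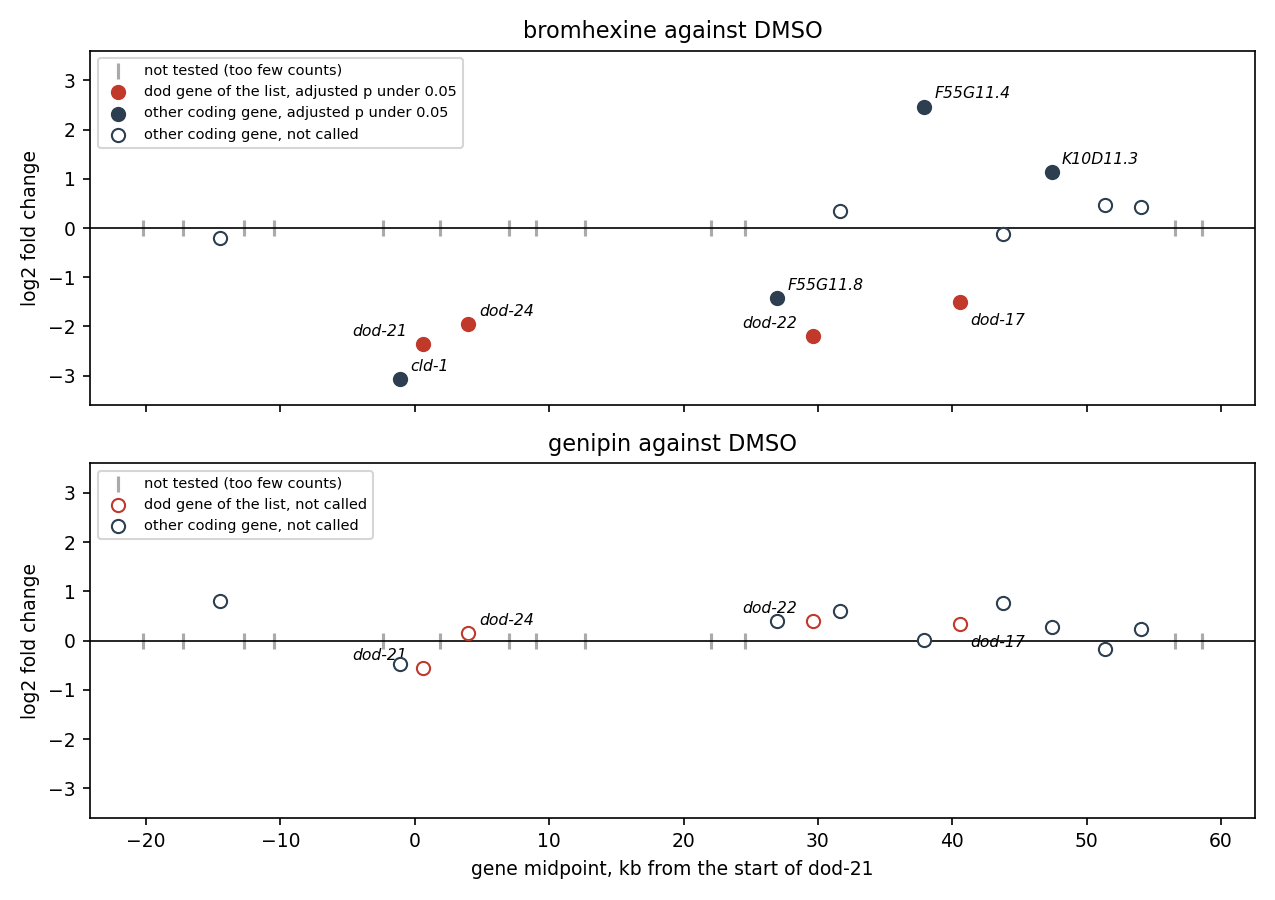
Log2 fold changes of the protein-coding genes around the dod genes of chromosome IV, by distance in kb of the gene midpoint from the start of dod-21, for bromhexine against DMSO (top) and genipin against DMSO (bottom). With bromhexine the 4 dod genes lie below 0 and F55G11.4, beside dod-17, lies at 2.47, while no gene was called with genipin.

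The genes around the chromosome IV dod genes did not all move with them. From dod-21 to dod-17 there are 13 protein-coding genes, of which 9 are not on the list, and 3 of those 9 could be tested. F55G11.8, which lies 728 bases to the left of dod-22, averaged 3.56 ± 0.767 CPM with bromhexine and 9.63 ± 1.77 CPM with DMSO, and its log2 fold change was -1.43 ± 0.19 (adjusted p = 5.86e-05, edgeR). F55G11.4, which lies 699 bases to the left of dod-17 on the same strand, went the other way. It had 551, 831.7, 497.2 and 534.1 CPM with bromhexine, 146.7, 94.9, 109.6 and 90.8 CPM with genipin, and 86.6, 96.3, 126.6 and 127.5 CPM with DMSO. Its log2 fold change with bromhexine was 2.47 ± 0.19 (adjusted p = 1.53e-07), so adjacent genes on one strand moved in opposite directions. F55G11.2, between them, did not pass the test (0.35 ± 0.24, adjusted p = 0.256).

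Within 20 kb of the chromosome IV dod genes, 9 other protein-coding genes were tested, and with bromhexine 2 were called higher and 2 lower, a share near the 40.8% of all tested genes. Besides F55G11.4 and F55G11.8 these were cld-1, with a log2 fold change of -3.07 ± 0.42 (adjusted p = 6.43e-05), and K10D11.3, with 1.13 ± 0.34 (adjusted p = 0.015). Because cld-1 shares reads with dod-21, its own fold change is uncertain too, and its call is not independent of that of dod-21. K10D11.3 lost its call without bromhexine replicate 2 (adjusted p = 0.0664, the highest over the alternatives run). Around dod-19 and dod-20 on chromosome V, 4 of 13 protein-coding neighbours could be tested and none was called. Without bromhexine replicate 4, 1 of these 4 was called lower. The closest neighbour of dod-19 is irg-8, a gene named for its response to infection, and its log2 fold change was -0.24 ± 0.11 (adjusted p = 0.0904). At an unadjusted p under 0.05, 1 of the 4 was lower, and neither DESeq2 nor limma voom called any.

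Other genes known to respond to DAF-16 were counted beside the dod genes. The counts of this and the other lists stand beside 19% of all tested genes called higher with bromhexine and 21.8% called lower. Of 4 tested genes that are known to be lower under DAF-16 and carry other names, 2 were called higher with bromhexine and none lower. These were the yolk protein genes vit-2, with 0.53 ± 0.11 on the log2 scale (adjusted p = 0.00171), and vit-5, with 0.49 ± 0.12 (adjusted p = 0.00404, edgeR). vit-2 averaged 32940 ± 2107 CPM with bromhexine and 22860 ± 2725 CPM with DMSO. Neither ins-7 (0.83 ± 0.34, adjusted p = 0.0633) nor gcy-18 (-0.26 ± 0.17, adjusted p = 0.235, edgeR) passed. The number called higher was 3 under limma voom and without DMSO replicate 1. Of 11 tested genes known to be raised by DAF-16, 9 were called higher and none lower, with a median of 0.93. Among them the superoxide dismutase gene sod-3 averaged 4.04 ± 0.234 CPM with bromhexine and 1.28 ± 0.179 CPM with DMSO (1.65 ± 0.18, adjusted p = 9.59e-06). The metallothionein gene mtl-1 had a log2 fold change of 1.49 ± 0.14 (adjusted p = 1.69e-06), and the lysozyme gene lys-7 had 1.6 ± 0.18 (adjusted p = 1.16e-05). With genipin no gene of these lists was called, and 1 of the 4 known to be lower under DAF-16 was higher at an unadjusted p under 0.05.

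Of 16 genes of the insulin pathway, 6 were called higher and 3 lower with bromhexine, with a median of 0.10. The share called lower was close to the 21.8% of all tested genes. The receptor gene daf-2 had a log2 fold change of 0.53 ± 0.10 (adjusted p = 0.00123), the kinase gene age-1 had 0.39 ± 0.09 (adjusted p = 0.00355) and daf-16 itself had 0.37 ± 0.08 (adjusted p = 0.0021, edgeR). daf-16 averaged 166.4 ± 11 CPM with bromhexine and 128.6 ± 3.37 CPM with DMSO. Without bromhexine replicate 1, bromhexine replicate 3 or DMSO replicate 1, the counts were 4 higher and 1 lower, without bromhexine replicate 2 they were 5 and 1, and without DMSO replicate 3 they were 3 and 1. RNA levels do not show whether the protein DAF-16 was in the nucleus.

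Genes of the p38 immune pathway and of intestinal gene control were lower or not called. Of 12 genes, 6 were called lower with bromhexine and none higher, with a median of -0.28. The adaptor gene tir-1 averaged 207.9 CPM with bromhexine and 393.8 CPM with DMSO (-0.92 ± 0.13, adjusted p = 8.18e-05). The p38 kinase gene pmk-1 averaged 23.7 CPM with bromhexine and 39.9 CPM with DMSO (-0.75 ± 0.10, adjusted p = 6.21e-05), and sek-1, the kinase that acts on PMK-1, had -0.59 ± 0.07 (adjusted p = 2.87e-05, edgeR). The gene of the intestinal GATA factor ELT-2 did not pass (-0.04 ± 0.13, adjusted p = 0.816). The counts were the same under every alternative run at the adjusted p of 0.05.

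Genes that respond to infection but carry no dod name moved in both directions. Of 14, 6 were called higher and 5 lower with bromhexine, with a median of -0.12, and the counts were the same under every alternative run at the adjusted p of 0.05. irg-6, which lies 21.8 kb to the left of dod-21, averaged 137.8 CPM with bromhexine and 13.3 CPM with DMSO (3.37 ± 0.13, adjusted p = 1.44e-10). irg-4 had a log2 fold change of 1.73 ± 0.10 (adjusted p = 9.95e-09) and irg-5 had 1.91 ± 0.19 (adjusted p = 2.89e-06). Among the lower ones, C17H12.8 averaged 83.3 CPM with bromhexine and 253.3 CPM with DMSO (-1.6 ± 0.14, adjusted p = 1.06e-06), catp-3 had -1.46 ± 0.15 (adjusted p = 5.21e-06) and sysm-1 had -1.36 ± 0.19 (adjusted p = 9.12e-05, edgeR). The decreases of dod-24, dod-22 and dod-21 were thus larger than those of these 3 infection response genes, while that of dod-17 lay among them, although these differences between genes were not tested. With genipin none was called by edgeR, 2 were higher at an unadjusted p under 0.05, and DESeq2 called 1.

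**Figure D4:**
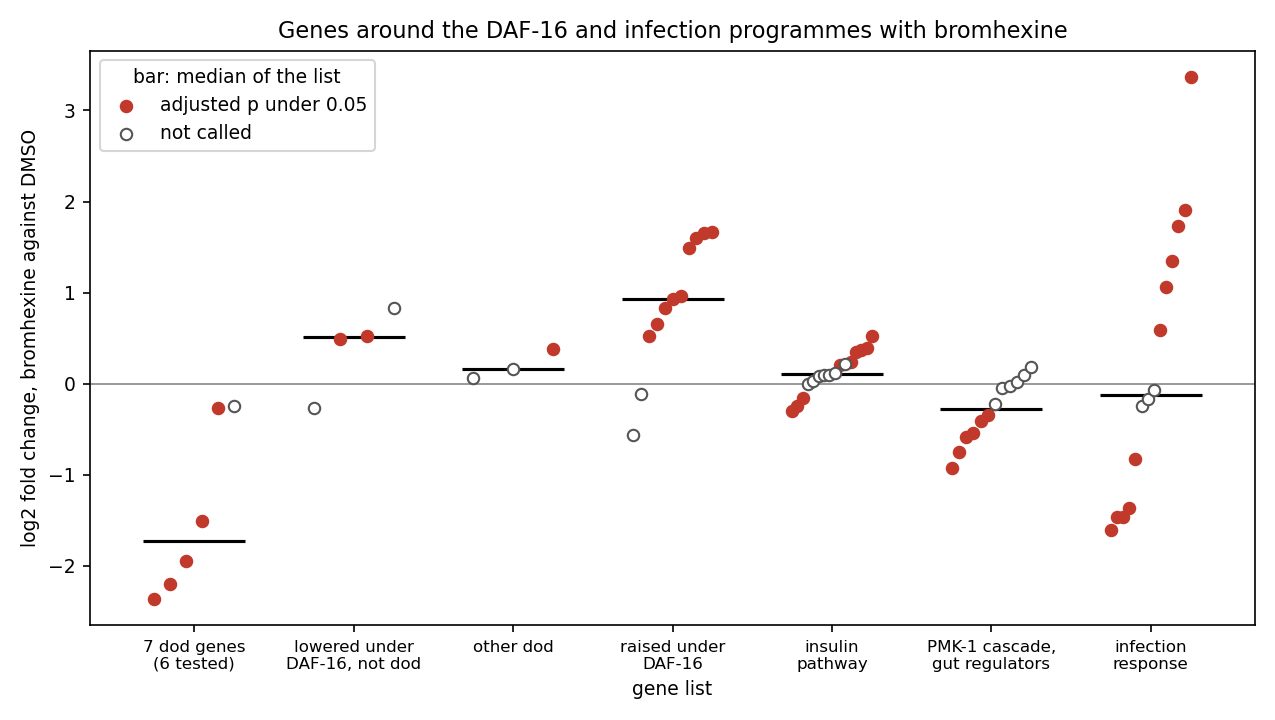
Log2 fold changes of bromhexine against DMSO for the 6 tested dod genes and for lists of related genes, with filled points for an adjusted p under 0.05 and a bar at the list's median. The dod genes have a median of -1.73, the genes raised under DAF-16 one of 0.93, and the infection response genes spread on both sides of 0.

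Tissue markers were read against the same shares of all tested genes, 19% higher and 21.8% lower with bromhexine. Of 12 intestinal markers, 6 were called higher and 1 lower, and their summed level was 40800 to 45100 CPM with bromhexine, 25900 to 33800 CPM with genipin and 22600 to 28300 CPM with DMSO. Most of that sum is the yolk protein gene vit-6, and the gut esterase gene ges-1 averaged 81.3 CPM with bromhexine and 29.9 CPM with DMSO. By contrast elt-2, elt-7, ifb-2, act-5 and nhx-2 were not called, with log2 fold changes of -0.04, -0.22, 0.12, 0.04 and 0.03. The marker called lower was mtl-2 (-0.34 ± 0.09, adjusted p = 0.00801, edgeR). None of the 12 was at 0 in any group. The 7 dod genes together had 268 to 345 CPM with bromhexine, 375 to 426 CPM with genipin and 378 to 460 CPM with DMSO. Most of that sum is dod-19 and dod-23, and the 4 genes of chromosome IV are a smaller part of it. Their part in its difference between groups is not small. From DMSO to bromhexine the mean of dod-24 went from 29.7 to 7.63 CPM. The mean of dod-19 went from 272.5 to 227.3 CPM and that of dod-23 from 94.8 to 79.9 CPM.

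Of the other tissues, 5 of 8 body wall muscle markers were higher and 1 lower, with summed levels of 1160 to 1470 CPM with bromhexine, 758 to 1440 CPM with genipin and 606 to 1140 CPM with DMSO. Of 10 germ line markers 8 were higher and none lower, at 5640 to 7260 CPM with bromhexine, 4660 to 6230 CPM with genipin and 4880 to 5840 CPM with DMSO. The germ line count was 4 without bromhexine replicate 1 or DMSO replicate 3, and 5 without bromhexine replicate 3 or DMSO replicate 1. Neuron markers summed to 324 to 358 CPM with bromhexine, 334 to 346 CPM with genipin and 334 to 345 CPM with DMSO, with 3 of 10 higher and 2 lower. The lower count was 1 without bromhexine replicate 1, 2 or 3 or DMSO replicate 1 or 3. Of 8 tested hypodermis markers 1 was higher and 4 lower, at 417 to 619 CPM with bromhexine, 485 to 552 CPM with genipin and 467 to 554 CPM with DMSO. Much of that sum is col-19, which was not called (0.15 ± 0.15). By contrast dpy-13 averaged 0.0385 CPM with bromhexine and 12.7 CPM with DMSO (-8.36 ± 0.83 on the log2 scale, adjusted p = 3.31e-06, edgeR). For rol-6 the means were 0.0927 and 2.77 CPM (-4.87 ± 0.67, adjusted p = 7.43e-05, edgeR). The higher marker was lin-26 (0.17 ± 0.06, adjusted p = 0.0399, edgeR). No hypodermis marker was called higher without bromhexine replicate 1, 2 or 3, genipin replicate 1 or 4, or DMSO replicate 1, 3 or 4. Of 6 tested pharynx markers 1 was higher and 3 lower, at 75.3 to 111 CPM with bromhexine, 82.2 to 101 CPM with genipin and 82.2 to 106 CPM with DMSO. The higher count was 0 without bromhexine replicate 1 or 2 or DMSO replicate 1, 3 or 4. It was 2 without bromhexine replicate 4 or DMSO replicate 2. The pharynx marker phat-1 had too few counts to be tested. It was at 0 in the bromhexine libraries and averaged only 0.0213 CPM with genipin and 0.0611 CPM with DMSO. Sperm markers, 2 of 6 of them higher, summed to 21.4 to 28.2 CPM with bromhexine, 16.4 to 20.5 CPM with genipin and 16.2 to 18.9 CPM with DMSO. With genipin no marker was called. At an unadjusted p under 0.05 (edgeR), however, 6 of 8 body wall muscle markers were higher, with a median log2 fold change of 0.449. At that threshold 1 of 10 neuron markers was higher, 2 of 8 tested hypodermis markers were lower, and no marker of the other tissues passed. The part of these tissue markers in the decrease of the dod genes was not tested.

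The genes most like each dod gene were sought by Pearson's r of log2 CPM over the 12 libraries, among 10369 genes of sufficient level. The libraries share the split into 3 groups, so the values are descriptions, and r does not compare the size of changes. dod-22 was closest to pgp-8, a P-glycoprotein gene (r = 0.988), which averaged 4.33 CPM with bromhexine, 19.2 CPM with genipin and 15.5 CPM with DMSO. dod-24 was closest to the infection response gene C17H12.8 (r = 0.984) and to clec-51, a C-type lectin gene (r = 0.983). dod-17 was closest to pud-3 (r = 0.962), and dod-21 to F54E2.1 (r = 0.974) and the forkhead factor gene fkh-2 (r = 0.963). The sizes differed, with log2 fold changes with bromhexine of -3.20 for pud-3, -0.59 for F54E2.1 and -1.06 for fkh-2. For dod-19 the closest was ugt-53, of the UDP-glucuronosyltransferase family (r = 0.961), and for dod-23 it was C44B7.7 (r = 0.921). None of these lies within 20 kb of the dod gene it resembles.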

How the data were processed

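Total RNA of 12 samples was sequenced as paired reads, per the labels' protocols. Per the submitters' processing notes the authors used FastQC, STAR 2.7.11b, RSEM 1.3.3 and the build WBcel235, with the annotation release and any trimming not given in the sources used here. The authors deposited RSEM expected counts, 2.06% of which carry decimals. Names and coordinates come from the Ensembl release 115 annotation of WBcel235, which holds all 46926 genes of the table.

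Expected counts were rounded and fitted in R 4.3.3 with edgeR 4.0.16 (filterByExpr, TMM, quasi-likelihood test, 1 fit of 12 libraries with group as the only term). P was adjusted over 13695 genes by Benjamini and Hochberg. A standard error is the size of the log2 fold change divided by the square root of F. The biological coefficient of variation was 12.1%. TPM used the summed exon length of each gene. Replicates of a group differed by more than counting noise (chi-squared per degree of freedom 6.39 to 33.5). The procedure was tested on simulated data.

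The 7 genes and all lists were chosen with earlier results of these data known. Besides the 7, up to 3 called genes with the smallest p in each direction could be named from a list and contrast against DMSO, and the 2 genes with the highest r for each dod gene, among genes whose mean log2 CPM was 1 or more. Genes named outside this rule, which are neighbours, values that did not pass, genes of the cld-1 read check and a marker that dominated a sum, were chosen after their values were seen. 2 list names were matched through RefSeq locus tags of WBcel235, and sodh-1 was not matched. A list by protein similarity was planned, and protein sequences were not used here. Alternatives were DESeq2 1.42.0, limma 3.58.1 voom, RLE and upper quartile scaling, no filter, the replicate number as a block, 1 CPM in 4 libraries, an adjusted p under 0.01, only the 8 libraries compared, each library left out, and the longest transcript as length. Summing dod-21 with cld-1 was added after the data were seen.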

Additional observations from a re-analysis of the deposited data

How the results depend on the processing

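dod-21, dod-24, dod-22 and dod-17 kept their direction and call under all alternatives run, against DMSO and against genipin. Against DMSO their log2 fold changes ran from -2.74 to -2.07, -2.14 to -1.81, -2.50 to -1.99 and -1.62 to -1.33, in that order of genes. The number of dod genes called with bromhexine was 4 to 6 against DMSO and 4 to 5 against genipin when 1 library was left out, and 0 for genipin against DMSO. dod-19 lost its call against DMSO without bromhexine replicate 1, without DMSO replicate 3 and at an adjusted p under 0.01, and against genipin in 8 alternatives. dod-23 was called under upper quartile scaling (-0.29, adjusted p = 0.0489, in a range of 0.0112 to 0.232) and without DMSO replicate 2. With genipin dod-19 ran from -0.0789 to 0.0144 when 1 library was left out, the upper value without DMSO replicate 3. Over all genes, 5581 were called for bromhexine against DMSO (3188 at an adjusted p under 0.01, 4239 to 6254 with 1 library left out) and 4728 for bromhexine against genipin (2457 at that threshold and 3301 to 5672). Upper quartile scaling gave 1476 higher and 3024 lower for bromhexine against genipin, against 2057 and 2671 by TMM. For genipin against DMSO 5 genes were called, 31 by DESeq2, 2 by limma voom, 17 with no filter, 3 from only the 8 libraries, 2 at an adjusted p under 0.01, and 2 to 11 with 1 library left out. No pairing of the samples by replicate number was seen across all 3 groups. Same-numbered samples had correlations of -0.145 to 0.413, over 0.1 in 3 of 12 pairs, and 2 of 12 correlated best with their own number. Those were numbers 2 and 3 of genipin and DMSO (0.284 and 0.413). Pairing between only these groups was not tested. With the replicate number as a block, 5, 0 and 5 dod genes and 5444, 5 and 4542 genes were called, for bromhexine and then genipin against DMSO and for bromhexine against genipin. The causes of these shifts were not tested. Counts were lowest for dod-20, and then for dod-22.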

Other observations

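Of 6 tested protein-coding neighbours of dod-23 within 20 kb on chromosome II, 2 were called higher and 1 lower with bromhexine, beside 40.8% of all tested genes called in either direction. F49E12.10 averaged 14.8 ± 1.62 CPM with bromhexine and 2.52 ± 1.22 CPM with DMSO (2.55 ± 0.28 on the log2 scale, adjusted p = 9.93e-06, edgeR). drd-1 averaged 62.7 ± 3.88 CPM with bromhexine and 33.0 ± 5.86 CPM with DMSO (0.93 ± 0.13, adjusted p = 7.46e-05). efl-3, an E2F-like factor gene, had a log2 fold change of -0.52 ± 0.16 (adjusted p = 0.016), and no neighbour was called lower without bromhexine replicate 2, bromhexine replicate 3 or DMSO replicate 3. With genipin none of the 6 was called by edgeR, DESeq2 or limma voom, and 1 was higher at an unadjusted p under 0.05.

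The annotation names 3 more genes dod. With bromhexine 1 of them was called higher and none lower, beside 19% and 21.8% of all tested genes. They were found by name only, and the name does not give the direction of their response to DAF-16. They are therefore not counted here as genes lowered under DAF-16. dod-3 averaged 22.8 ± 1.51 CPM with bromhexine and 17.5 ± 2.66 CPM with DMSO (0.38 ± 0.13, adjusted p = 0.0332, edgeR). That call was lost without bromhexine replicates 1, 2 or 4, without DMSO replicates 1 or 2, and under upper quartile scaling. dod-18 had a log2 fold change of 0.16 and dod-6 one of 0.06, and neither passed.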
